A study of Mus musculus with 6 samples.

Results

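The genes described here encode the synaptic vesicle and the machinery that releases its transmitter: 38 genes, listed by mouse symbol and all found among the 54532 Ensembl gene identifiers measured. They were followed in RNA from the cervical spinal cord of C57BL/6 mice in 2 groups of 3. The ACD group had SADBE-induced allergic contact dermatitis: 20 µl of 1% squaric acid dibutylester (SADBE, a contact allergen) in acetone was given to the abdomen on 3 days and, 5 days later, to the nape on 3 further days. The control group received acetone alone at the nape, and whether its abdomen was also sensitised is not clear from the labels. No genetic change is named for either group, and age, sex and day of handling were not stated. The libraries of a group are labelled biological replicates and the design speaks of 6 mice, so a library stands for a mouse.

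At a synapse, transporters fill vesicles with transmitter, scaffold proteins of the active zone hold vesicles beside calcium channels, and Munc13 and RIM proteins prime them. Calcium binding to synaptotagmin then lets the SNARE proteins of vesicle and plasma membrane zip together, and NSF with its SNAP adaptors pulls the spent SNARE complex apart. In the spinal cord the excitatory interneurons load glutamate through the transporter VGLUT2 (Slc17a6), while inhibitory interneurons load GABA and glycine through VIAAT (Slc32a1). A transcript is found mostly in the cell body, so terminals of sensory ganglion cells and of descending brain neurons add little of their mRNA to a cord sample. In bulk tissue fewer cells of a type and less RNA per cell cannot be told apart.

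Many synaptic genes carry a binding element for the repressor REST, called RE1, near their start. Sites in 2 members, a synapsin and a GABA-synthesising enzyme, are shown because they are the upstream matches to RE1 and to the cAMP response element found among the members. Start windows of RefSeq (GRCm38.p6, 250 bases before to 50 after the start) matched 31 of the 38 genes. On both strands the windows were searched for the left part of RE1, TTCAGCACC, its right part, GGACAGCGC, and the cAMP response element, TGACGTCA. No 2 of the matches in a window overlapped. Capitals mark the match, and the sequences read 5′ to 3′ in the direction of the gene.
Syn1, left part of RE1, chrX:20921132-20921160, minus strand: cactgtcggaTTCAGCACCgcggtcagag
Syn1, cAMP response element, chrX:20921059-20921088, minus strand: caaaggctgacTGACGTCActcactagccc
Gad2, right part of RE1, chr2:22622162-22622190, plus strand: gtagcaccctGGACAGCGCgttccggcag

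Unc13a held both parts of RE1 on the opposite strand, within the first transcribed bases. The left part was present in 0.371% of all 32851 windows, the right part in 0.405% and the cAMP response element in 1.79%. A match describes letters, not binding. The mRNA levels of the 3 genes with an RE1 part, Syn1, Gad2 and Unc13a, did not pass the test between the groups (adjusted p of 0.671, 0.962 and 0.557).

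Levels are given as FPKM, read fragments per exon length and a denominator for each library, so genes can be compared per length. This denominator, recovered from the steps between low values, was 16916600 to 18583992 in control libraries and 17346315 to 20245576 in ACD libraries. The reads recovered summed to 0.976 to 1.03 of it in controls and 1.04 to 1.07 in ACD. The denominator is thus not the plain read total of a library. Of genes found in cord tissue, the choline acetyltransferase gene Chat of motor neurons stood at 6.22 ± 1.54 FPKM in controls. The myelin gene Mbp stood at 2396 ± 497 (SD, n = 3 for each). These genes alone do not fix the tissue as cord or its level as cervical. Summed levels of some marker lists for other cells, and of nuclear RNAs, lay apart between the groups. The summed 7 blood markers lay at 120 to 408 FPKM in controls and 562 to 848 in ACD, and 10 markers of dorsal root ganglion and Schwann cells at 202 to 296 and 368 to 529.7. No gene of either list passed in the fit reported. Of the 10 ganglion and Schwann cell markers 7 were tested, 6 positive and 1 negative, with a median log2 fold change of 0.61. A second fit, voom on recovered reads, called 1 of these 7 higher, where over all genes it called 3.28% higher. The sensory neuron gene Mrgprd, not tested, was at 0 in every library. The 8 RNAs that stay in the nucleus, among them Malat1 and Meg3, summed to 365 to 413 in controls and 115 to 157 in ACD. All 8 were lower in ACD without overlap between the groups, and 6 of the 8 passed. Of 10 microglia markers, all positive, 4 passed as higher. Of 10 astrocyte markers, 6 positive and 4 negative, 1 passed as higher. Over all genes tested 1.81% were called higher and 2.53% lower, and 28.6% did not overlap in either direction. No oligodendrocyte, endothelial or motor neuron marker passed. The part of these differences in the results below was not tested.

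In the control cord the release genes spanned from strong to nearly absent expression, and 20 of the 37 members tested lay in the top 10% of genes by control FPKM. Cplx1, the complexin that clamps and assists SNARE assembly, was highest at 532 ± 75.7 FPKM. Snap25, the plasma membrane SNARE, followed at 352 ± 25.9, and then the vesicle protein Syt11 at 208 ± 28.4, the vesicle GTPase Rab3a at 175 ± 28.5 and the vesicle SNARE Vamp1 at 145 ± 9.43 (SD, n = 3 for each). In this order Rab3a overlapped with both its neighbours, Syt11 and Vamp1, in the control libraries. The lowest were Doc2b, Syn3 and Unc13b, at 2.17 ± 0.245, 1.79 ± 0.545 and 0.815 ± 0.106 FPKM, and the glutamate transporter VGLUT1 (Slc17a7) at 0.0307 ± 0.0258.

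**Figure D1:**
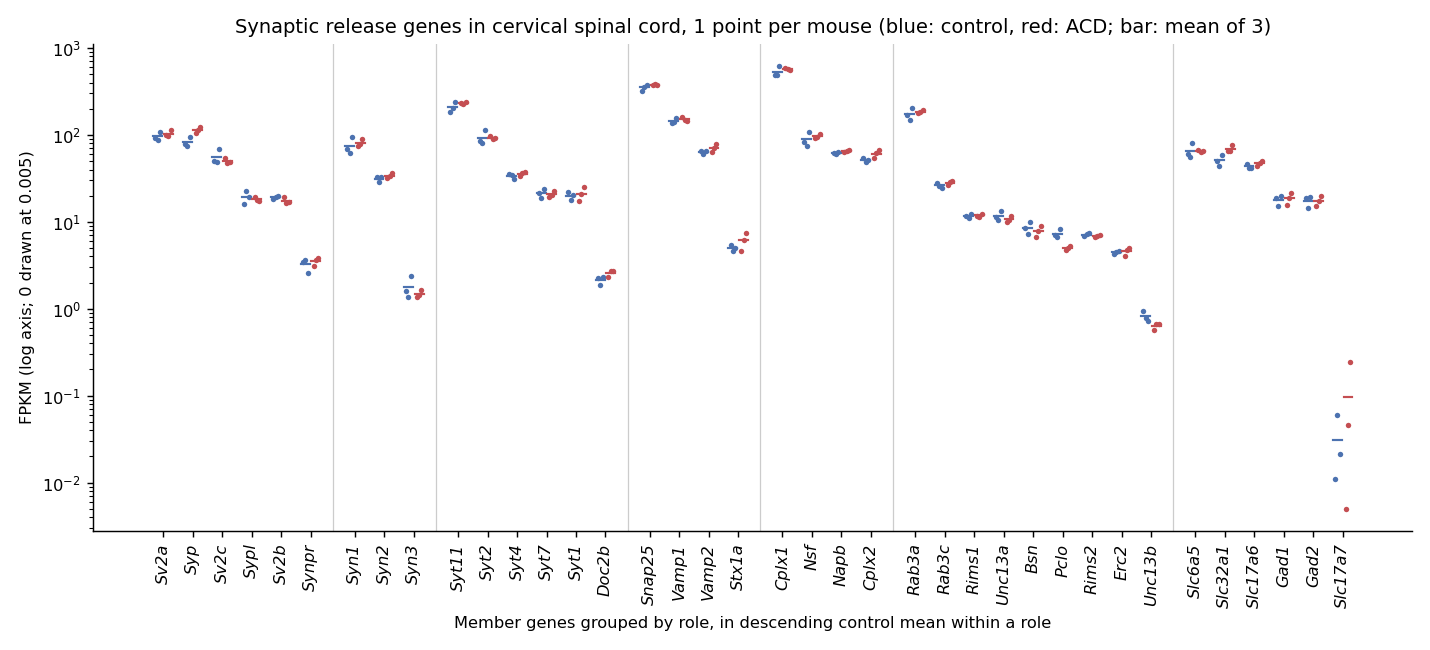
FPKM of the 38 genes on a log axis, with 1 point for each mouse (blue for control, red for ACD) and a bar at the mean of 3 mice, grouped by role. The groups lie close together for nearly every gene, while levels differ widely between genes, from Cplx1 at 532 FPKM in controls to Slc17a7 at 0.0307.

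The comparison between ACD and control concerned the level of these transcripts in the cord segments that receive input from the treated nape. Of the 37 members tested none was higher and 1, Pclo, was lower in ACD at an adjusted p of 0.05 (limma, adjusted over 21369 genes). Over all genes tested 1.81% were called higher and 2.53% lower. Without adjustment 3 members were higher and 1 lower at p of 0.05, where over all genes 10.5% were higher and 11.8% lower. The median log2 fold change of the members was 0.08, with 27 positive and 10 negative, against -0.01 over all genes. After TPM scaling 17 members were positive and 20 negative, the median of the members turned to -0.02 and that of all genes to -0.10. The groups did not overlap for 6 of the 37 members, or 16.2%, against 28.6% of all genes tested.

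The measurements were tight enough to bound most changes. The standard error of a member's log2 fold change was 0.11 at the median. In the fit reported, the 95% interval lay inside a 1.5-fold change in either direction for 31 of the 37. It lay inside a 2-fold change for all 37. With voom on recovered reads 2 members were called higher, Syp and Slc32a1, and 1 lower, Pclo. Over all genes voom called 3.28% higher and 4.63% lower.

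**Figure D2:**
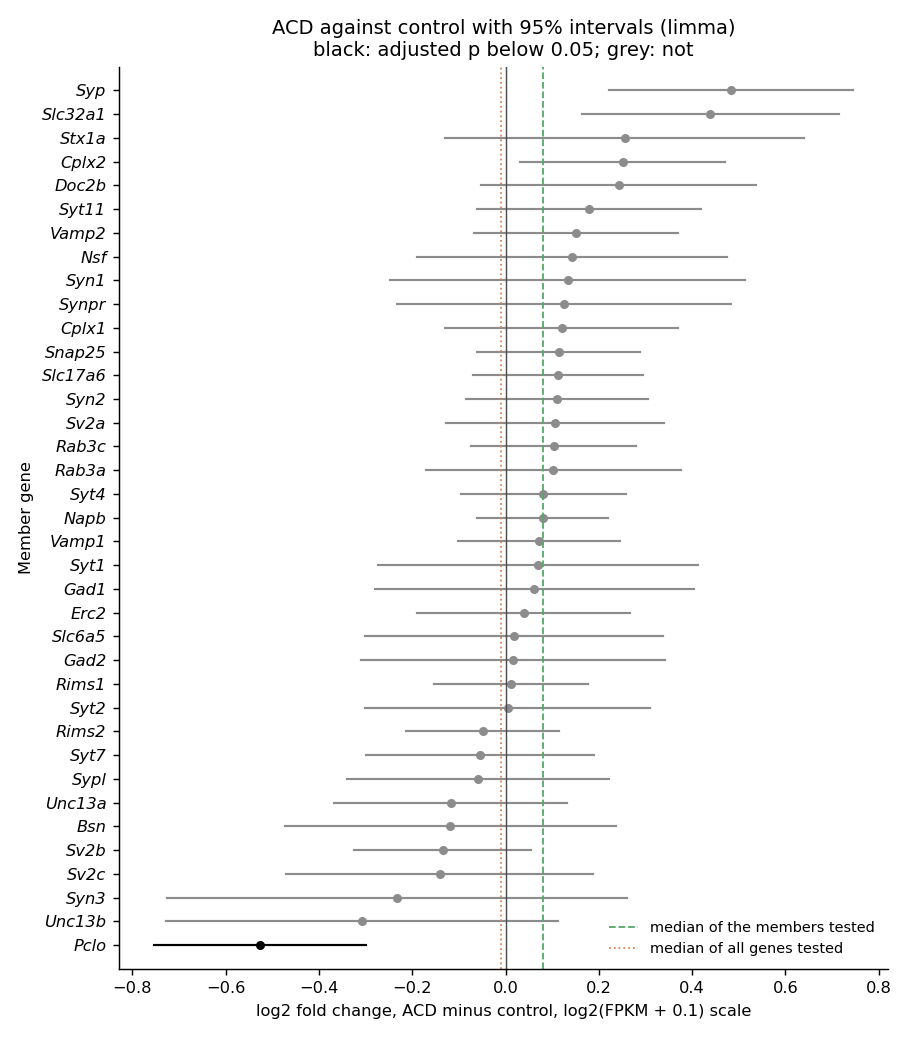
Log2 fold change of ACD minus control with its 95% interval for the 37 members tested, ordered by size, with black for an adjusted p below 0.05 and grey otherwise. Pclo, at -0.53, is the only gene in black, and the dashed member median of 0.08 lies close to the dotted median of all genes at -0.01.

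Among the proteins of the active zone, the release site beneath the presynaptic membrane, Pclo was lower in ACD. Pclo encodes piccolo, a very large scaffold protein, and lies on chromosome 5 at 14514918 to 14863459 on the plus strand (GRCm38). Its controls were at 7.03, 6.71 and 8.24 FPKM and its ACD libraries at 4.77, 5.04 and 5.31. Every ACD value was below every control value, a fall of 0.53 on the log2 scale (SE 0.10, 95% interval -0.75 to -0.30, adjusted p = 0.0336) on a mean of 2502 reads. The call was lost without control 1 (adjusted p = 0.0762) and without ACD 1, 2 or 3 (0.111, 0.105 and 0.0907), although the fold change stayed between -0.56 and -0.49 in these fits. Pclo has 22457 bases of exon, and of the 311 tested genes with at least 16000 bases 13.2% were called lower, with a median of -0.19. With the part of the fold change that followed exon length and GC content taken out, Pclo was at -0.27 with an adjusted p of 0.0996.

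Bsn, the related scaffold bassoon, did not pass: its controls were at 8.60, 7.16 and 10.05 FPKM and its ACD libraries at 6.72, 7.94 and 9.03. These groups overlapped (log2 fold change -0.12, SE 0.15, adjusted p = 0.686). The ratio of Pclo to Bsn within a library does not depend on scaling, while a trend with exon length can remain in it. This ratio was lower in every ACD library than in every control. On the log2 scale it was -0.29, -0.09 and -0.28 in controls and -0.48, -0.65 and -0.76 in ACD (two-sided exact permutation p = 0.10, the smallest that 3 against 3 allows). Unc13b, a Munc13 priming factor with 22746 bases of exon, was at 0.933, 0.781 and 0.730 in controls and 0.570, 0.667 and 0.675 in ACD. Its groups did not overlap, but the difference did not pass (-0.31, SE 0.18, adjusted p = 0.360), and it was -0.04 once the length and GC trend was removed.

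The other priming and scaffold genes overlapped between the groups. Unc13a, the more abundant of the 2 Munc13 members, was at 11.7 ± 1.46 and 10.7 ± 0.870 FPKM (log2 fold change -0.12). Rims1, Rims2 and Erc2, which tether vesicles and calcium channels, had log2 fold changes of 0.01, -0.05 and 0.04 with SEs of 0.07, 0.07 and 0.10. Rab3a, the GTPase that docks vesicles to RIM, was at 169, 149 and 205 FPKM in controls and 181, 184 and 193 in ACD (0.10, SE 0.12, adjusted p = 0.648). All 3 ACD values lay within the control range. Rab3c was at 27.8, 26.2 and 24.8 in controls and 26.2, 28.7 and 29.6 in ACD (0.10, SE 0.07, adjusted p = 0.472).

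**Figure D3:**
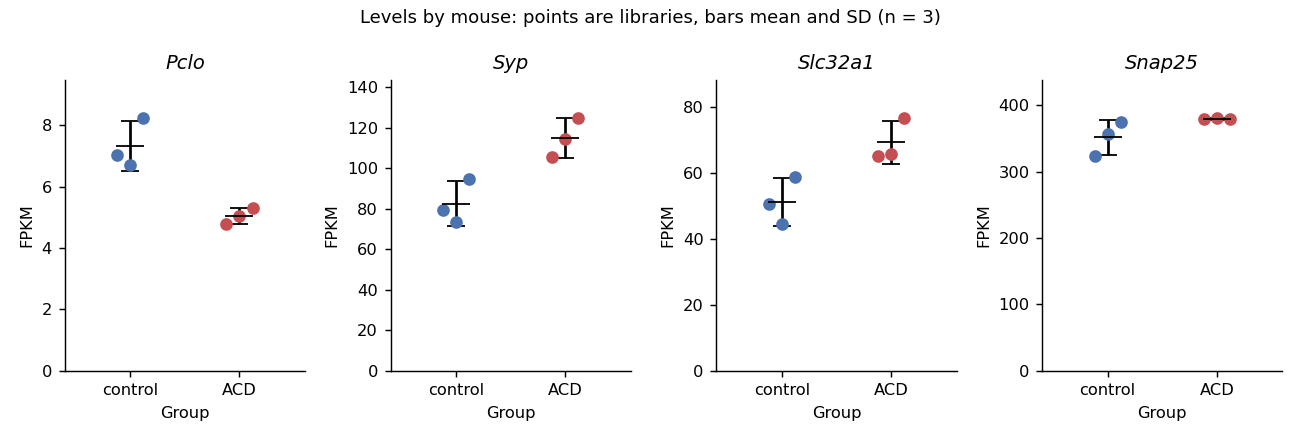
FPKM of Pclo, Syp, Slc32a1 and Snap25 in each mouse, with mean and SD (n = 3) as bars, on axes that start at 0. ACD libraries lie below all controls for Pclo and above all controls for the other 3 genes, with the Snap25 groups almost touching at 375 and 379 FPKM.

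Of the vesicle membrane proteins none of 6 passed, with a median log2 fold change of 0.02. The nearest was Syp, synaptophysin, the most widely used vesicle marker, on chromosome X at 7638471 to 7653256. Its controls were at 79.1, 73.6 and 94.8 FPKM and its ACD libraries at 105, 115 and 125. The groups did not overlap, with a log2 fold change of 0.48 (SE 0.11, 95% interval 0.22 to 0.74, adjusted p = 0.0582). Of the fits that left out a library, Syp passed in that without control 3, at 0.59 with an adjusted p of 0.0374. Over the 16 alternatives tried its adjusted p ran from 0.0112 with voom to 0.178, and 4 of them passed.

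Sv2a, the glycoprotein to which the drug levetiracetam binds, was at 93.1, 87.2 and 107 FPKM in controls and 98.5, 97.6 and 113 in ACD. These ranges overlapped (0.11, SE 0.10, adjusted p = 0.573). Its relative Sv2c was at 49.7, 49.2 and 69.0 in controls and 54.7, 46.9 and 49.0 in ACD (-0.14, SE 0.14, adjusted p = 0.594), with control 3 standing above the rest. Sv2b, Sypl and Synpr, the last a synaptophysin relative named synaptoporin, had log2 fold changes of -0.13, -0.06 and 0.13 and overlapping groups.

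The synapsins, which tie vesicles into the reserve pool, did not pass. Syn1 was at 69.5, 61.2 and 94.1 FPKM in controls and 73.7, 79.1 and 90.7 in ACD (0.13, SE 0.16, adjusted p = 0.671). Control 3 was again the highest of all 6 libraries. Syn2 was at 31.5 ± 2.27 and 34.0 ± 2.46 (0.11). Syn3, the least abundant, was at 1.58, 1.38 and 2.41 in controls and 1.35, 1.43 and 1.64 in ACD (-0.23, SE 0.21, adjusted p = 0.555). Timp3, on the opposite strand, covers 14.1% of the exon bases of Syn3 and is itself at 14.2 FPKM in controls, so the level of Syn3 is uncertain where counting did not use strand.

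Among the calcium sensors the most abundant transcripts were not those of the classical forebrain sensor. Syt2, the fast synaptotagmin of hindbrain and cord, stood at 86.0, 80.0 and 114 FPKM in controls against 22.1, 17.7 and 20.3 for Syt1, the fast sensor of forebrain neurons. In ACD Syt2 was at 96.2, 89.3 and 92.1 and Syt1 at 17.2, 21.2 and 25.1, so Syt2 exceeded Syt1 in all 6 libraries. Neither differed between the groups (log2 fold changes of 0.00 and 0.07, adjusted p of 0.988 and 0.818). Syt11, a family member that binds no calcium, was at 182, 204 and 238 in controls and 235, 229 and 237 in ACD (0.18, SE 0.10, adjusted p = 0.352). Control 3 was the highest value here as well.

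Syt7, the slow high-affinity sensor, was at 21.5, 19.0 and 24.1 FPKM in controls and 19.1, 20.4 and 22.4 in ACD (-0.06, SE 0.10, adjusted p = 0.793). Doc2b, a sensor of spontaneous and asynchronous release, was at 2.28, 1.89 and 2.34 in controls and 2.30, 2.71 and 2.73 in ACD (0.24, SE 0.13, adjusted p = 0.307). Its groups overlapped by the lowest ACD value alone. Syt4, found on dense core vesicles, was at 33.9 ± 2.34 and 35.8 ± 1.76 (0.08).

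All 4 SNARE genes had positive log2 fold changes and none passed (median 0.13), and after TPM scaling Vamp1 turned to -0.03. Snap25 was at 324, 357 and 375 FPKM in controls and 379.7, 381 and 379 in ACD. The groups just missed each other, with 0.11 on the log2 scale (SE 0.07, 95% interval -0.06 to 0.29, adjusted p = 0.415). In this fit the interval bounds a rise of this abundant transcript below 1.5-fold. With the length and GC trend removed Snap25 was at 0.29 with an adjusted p of 0.0747, and no interval is given for that fit. Stx1a, a syntaxin of the plasma membrane, was at 5.41, 4.66 and 4.97 in controls and 4.67, 6.19 and 7.44 in ACD (0.25, SE 0.16, adjusted p = 0.409). Vamp1, the synaptobrevin that predominates in cord and brainstem, was at 137, 141 and 155 in controls and 159.8, 150.1 and 146 in ACD (0.07, SE 0.07, adjusted p = 0.607). Vamp2, its forebrain counterpart, was at 64.0 ± 2.77 and 71.3 ± 8.02 (0.15), below Vamp1 in every library.

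The complexins and the disassembly genes also had positive log2 fold changes, again with none past the threshold (median 0.13), and after TPM scaling Napb turned to -0.02. Cplx1 was at 488, 487 and 619 FPKM in controls and 595, 569 and 559 in ACD (0.12, SE 0.11, adjusted p = 0.548). Cplx2, the complexin of forebrain excitatory cells, was at 53.9, 48.2 and 51.0 in controls and 54.1, 61.5 and 67.1 in ACD. Its groups did not overlap, by a narrow margin (0.25, SE 0.09, 95% interval 0.03 to 0.47, adjusted p = 0.174). Nsf, the ATPase that takes SNARE complexes apart, was at 88.7 ± 18.5 and 96.6 ± 5.07 (0.14). Its adaptor Napb, or beta-SNAP, was at 61.7, 60.0 and 64.2 in controls and 63.7, 65.8 and 66.9 in ACD (0.08, SE 0.06, adjusted p = 0.487).

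The genes that define the transmitter of a neuron did not pass either, with 5 of 6 tested and a median of 0.06. Slc32a1, the vesicular transporter for GABA and glycine on chromosome 2 at 158610767 to 158615748, came closest. Its controls were at 50.7, 44.4 and 58.9 FPKM and its ACD libraries at 65.3, 66.0 and 76.8. The groups did not overlap (0.44, SE 0.12, 95% interval 0.16 to 0.72, adjusted p = 0.0847). Without control 3 it was at 0.54 with an adjusted p of 0.0494, and over 16 alternatives the adjusted p ran from 0.0221 with voom to 0.230, with 2 passing. The antisense gene Gm14205 covers 24.9% of its exon bases and was at 0.0520 FPKM in controls.

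The other genes of inhibitory neurons overlapped between the groups. Gad1 and Gad2, which make GABA from glutamate, had log2 fold changes of 0.06 and 0.02 with SEs of 0.15 and 0.14. Gad2 was at 18.6, 14.4 and 19.1 FPKM in controls and 15.1, 17.6 and 19.8 in ACD (adjusted p = 0.962). Slc6a5, the glycine transporter GlyT2 that refills glycinergic terminals, was at 60.5, 55.8 and 81.5 in controls and 67.6, 64.3 and 65.6 in ACD (0.02, SE 0.14, adjusted p = 0.957). The log2 ratio of Slc6a5 to Slc32a1 was 0.25, 0.33 and 0.47 in controls and 0.05, -0.04 and -0.23 in ACD, lower in all ACD libraries (two-sided exact permutation p = 0.10). Slc17a6 was at 43.4 ± 2.43 and 47.0 ± 3.38 (0.11, SE 0.08, adjusted p = 0.444).

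Slc17a7, the VGLUT1 of cortex, cerebellum and large sensory neurons, did not reach the mean of 0.1 FPKM needed for the test. It rested on 1, 6 and 2 reads in controls and 0, 5 and 24 in ACD. Of its 29 ACD reads 24 came from ACD 3, at 0.243 FPKM, and ACD 1 had none, which at a limit of 3 reads allows up to 0.0321 FPKM. With 1 library holding most reads, no direction was read from it.

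Ratios of related genes were compared in 17 pairs of members. The groups did not overlap in 3 pairs, all lower in ACD: Pclo/Bsn, Slc6a5/Slc32a1 and Syn3/Syn1. The last was at -5.37, -5.37 and -5.23 in controls and -5.67, -5.70 and -5.71 in ACD on the log2 scale. Each had an exact p of 0.10, or 0.486 after Benjamini-Hochberg adjustment over the 17, so none passed and the design could not let one pass. In all 3 the first gene has more exon bases than the second: 22457 against 15938, 7203 against 2797 and 12282 against 3299. The same holds for most pairs that overlapped, so it does not set these 3 apart. Among those are Vamp1/Vamp2 (10167 against 3809), Sv2b/Sv2a (8381 against 4636) and Syn2/Syn1 (7031 against 3299). The part of exon length in these ratios was not tested. The level of Syn3 is also uncertain for its overlap with Timp3. In 3 pairs of a form typical of fast cord synapses and its forebrain counterpart, values overlapped: the log2 ratio of Vamp1 to Vamp2 was 1.17 ± 0.10 in controls and 1.10 ± 0.23 in ACD. That of Syt2 to Syt1 was 2.20 ± 0.26 and 2.14 ± 0.31, and that of Cplx1 to Cplx2 3.37 ± 0.21 and 3.24 ± 0.20 (SD, n = 3). The ratio of Slc17a7 to Slc17a6 depends on the value added before taking logs and is not read.

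**Figure D4:**
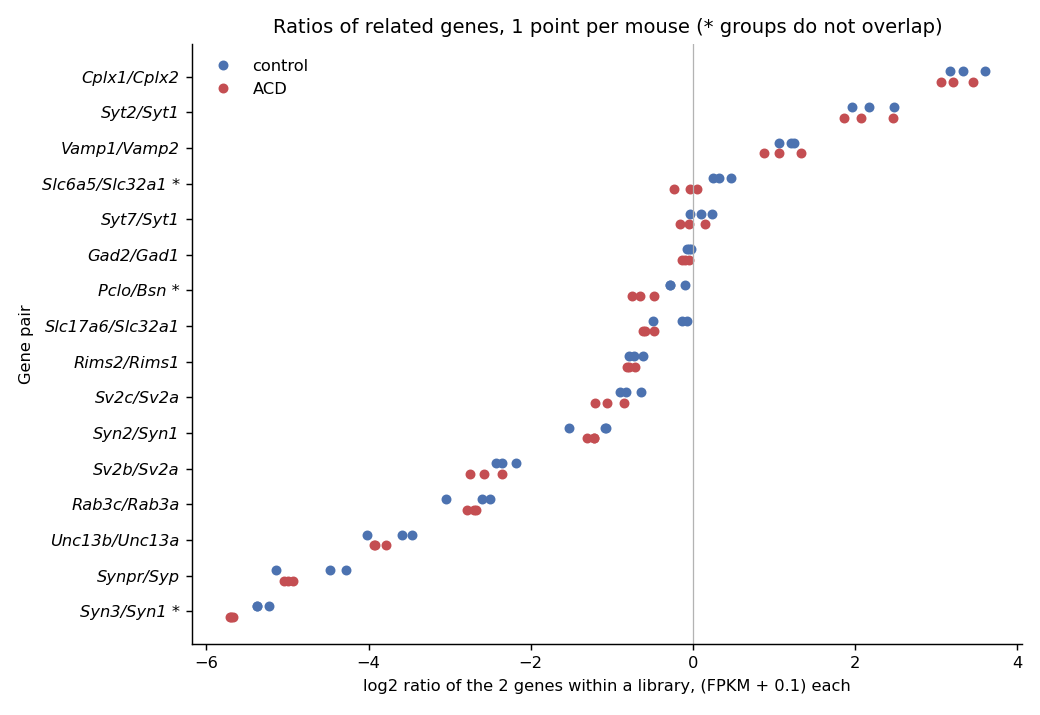
Log2 ratio of 2 related genes within each library for 16 of the pairs, with blue points for control and red for ACD mice and an asterisk where the groups do not overlap. Most pairs overlap, and the 3 with an asterisk, Slc6a5/Slc32a1, Pclo/Bsn and Syn3/Syn1, lie lower in ACD.

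Mice of the same group also differed in the level of the members. Among controls, control 3 was the highest library for 26 of the 38 genes, and among ACD mice ACD 3 for 30. The median log2 deviation of the 37 tested members from their mean over all libraries was -0.05, -0.15 and 0.07 in controls and -0.04, 0.04 and 0.11 in ACD. The range within controls was wider than the member median of 0.08 between the groups. The general neuron markers, 19 genes outside the members, deviated by -0.18, -0.13 and 0.10 in controls and 0.08, 0.08 and 0.09 in ACD. The coefficient of variation of a member had a median of 11.8% in controls and 8.09% in ACD. Over the 13650 tested genes with at least 1 FPKM it was 9.89% and 6.66%.

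Longer members had lower fold changes. Across the 37 members the correlation of log2 fold change with log2 exon length was -0.73 (Pearson) and -0.74 (Spearman). This is a description across genes that share the same 6 libraries. The 7 members of 2000 to 4000 bases had a median of 0.13, the 15 of 4000 to 8000 bases 0.11, the 13 of 8000 to 16000 bases -0.05, and Pclo and Unc13b above that -0.42. All genes tested had medians of 0.05, 0.01, -0.07 and -0.19 in the same classes. The 7004 genes below 2000 bases, a class without members, had a median of -0.08, so the all-gene medians did not fall throughout. Removing the trend left a correlation of -0.51 and -0.47 among the members, with class medians of 0.14, 0.11, 0.12 and -0.15.

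**Figure D5:**
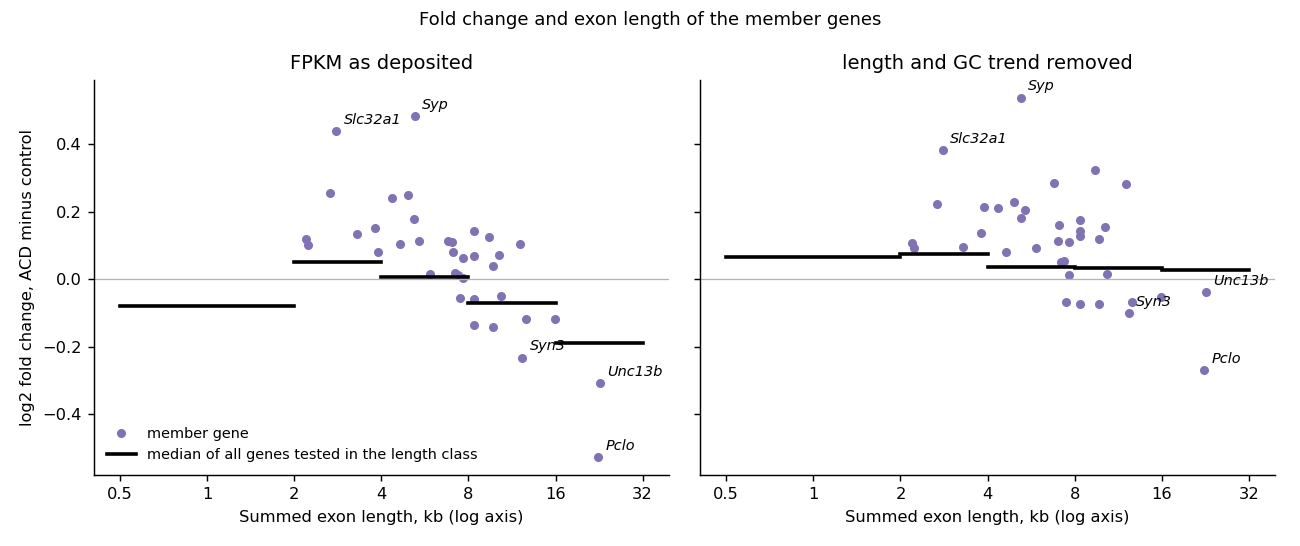
Log2 fold change of ACD minus control against summed exon length on a log axis for the 37 members (points) beside the median of all genes tested in each length class (black lines, with the outer classes drawn from 0.5 and to 32 kb), as deposited and with the length and GC trend removed. As deposited the members fall with length, and Pclo and Unc13b, the longest members, lie lowest. The all-gene medians fall from the class of 2000 to 4000 bases on, while that of the shortest class is at -0.08. With the trend removed Unc13b is at -0.04 and Pclo at -0.27.

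Further genes of the synapse were counted in lists outside the members. Of 52 other release genes tested none passed as higher and 1 as lower, with a median of 0.04. Over all genes 1.81% were called higher and 2.53% lower. The gene that passed was Stx3, a syntaxin of ribbon synapses and of postsynaptic exocytosis, at 4.22 ± 0.284 FPKM in controls and 2.72 ± 0.0787 in ACD (-0.62, SE 0.09, adjusted p = 0.0172). The groups did not overlap for 8 higher and 5 lower genes of the 52, against 28.6% of all genes in either direction. With voom 1 was called higher and 3 lower, where over all genes it called 3.28% and 4.63%. Of 24 postsynaptic scaffold genes none passed (median -0.02).

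In vesicle recycling 4 of 25 endocytosis genes passed as higher and none as lower, where over all genes tested 1.81% were called higher and 2.53% lower. Of the 25, 20 had positive and 5 negative log2 fold changes, with a median of 0.06 that became -0.04 after TPM scaling. Ap2s1, the small subunit of the clathrin adaptor AP2, went from 57.8 ± 1.76 to 77.4 ± 3.35 FPKM (0.42, SE 0.06, adjusted p = 0.0207). Hspa8, the chaperone that strips clathrin from vesicles and serves protein folding in every cell, went from 354 ± 28.7 to 498 ± 9.02 (0.50, SE 0.08, adjusted p = 0.0224). Clta, a clathrin light chain, went from 106 ± 6.63 to 140.1 ± 2.81 (0.40, SE 0.07, adjusted p = 0.0274). Of 16 subunits of the proton pump that energises vesicle filling 1 passed as higher, Atp6v0b (0.38, SE 0.07, adjusted p = 0.0296). All 16 had positive log2 fold changes, with a median of 0.15, or 0.05 after TPM scaling. For 7 of the 16 every ACD value lay above every control, where 28.6% of all genes tested did not overlap in either direction. These genes serve clathrin coats and acid organelles of all cells, glia included.

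Of the 19 general neuron markers 2 passed as higher and 1 as lower, where over all genes tested 1.81% were called higher and 2.53% lower. Their log2 fold changes were positive for 17 and negative for 2, with a median of 0.18. Gap43, a growth cone protein, went from 68.1 ± 1.97 to 94.9 ± 10.9 FPKM (0.47, SE 0.09, adjusted p = 0.0371), Stmn3 rose by 0.37 (adjusted p = 0.0449) and Dcx, with 12647 bases of exon, fell by 0.79 (adjusted p = 0.0460). The neuronal nucleus marker Rbfox3 was at 25.4 ± 2.25 and 28.0 ± 2.34 (0.14, adjusted p = 0.419).

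Exons of 14 members overlap those of another annotated gene, by 5% or more of the member's exon bases for 6 of them. Syp shares 16.8% with the antisense gene Gm14703, at 0.253 FPKM in controls, and Syt4 14.5% with Gm26658, at 0.166. For Pclo the antisense genes Gm26918 and Gm26954 cover 1.91% and 2.21%, and their control means were listed at 0 and 0.0591 FPKM. Without known strand, reads of such partners cannot be told apart.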

How the data were processed

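RNA of 6 cervical cords was measured, 1 table per library. The authors deposited FPKM values, as the values themselves show: multiplied by exon length and a denominator per library, 96.9% of values above 0 gave whole reads within 0.05. Per the submitters' processing notes the tools were HISAT2 2.0.5, featureCounts 1.5.0-p3 and DESeq2 1.16.1 with mm10. Roles of the tools, strand setting and annotation: not given in the sources used here. GENCODE M21 (GRCm38, the build mm10 names) held 54495 of the 54532 identifiers and gave exon lengths and coordinates. Symbols came from a list of gene names by identifier, or from GENCODE where that list had none.

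The test was limma 3.58.1 in R 4.3.3 with eBayes, trend and robust both on. It used log2(FPKM + 0.1) of genes whose mean over the 6 libraries reached 0.1 FPKM, adjusted by Benjamini-Hochberg over all 21369. Fold changes on this scale understate those of low genes. It was checked on simulated data. The sample descriptions gave group and replicate number. The limma p-values set a difference between the groups against the spread between 3 libraries a group, which eBayes moderates across genes.

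The members, lists and tests were chosen with earlier results of these data known. Every member is accounted for. Values in each library are given for members past the threshold and, in each role, for the highest, the most raised and the most lowered; other such genes (Bsn, Unc13b, Syt1, Syt2, Slc17a7) were chosen after their values were seen. For lists of synaptic and neuronal genes up to 3 passing genes, or the one of smallest p, are named, except for the postsynaptic list, where it is not reported here. Lists of other cell types, whose genes the same rule covers, are given as counts and sums only. Chat, Mbp, Malat1, Meg3, Mrgprd, Rbfox3 and the antisense partners were named after their values were seen. Ratios of 2 members used (FPKM + 0.1) and an exact permutation test. The alternatives were other pseudocounts, filters and scalings, voom, a replicate block and leaving out each library.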

Additional observations from a re-analysis of the deposited data

How the results depend on the processing

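Pclo was the only member called in the fit reported, and no other member was called lower in any alternative. Pclo passed in 9 of 16 alternatives. The count of lower members was 0 with no filter, 0 with the length and GC trend taken out and 0 with the replicate block, and 0 to 1 with 1 library left out. The count of higher members was 1 (Syp) with a mean of at least 1 FPKM, 1 (Syp) after removal of the trend, 2 with voom and 0 to 2 with 1 library left out. The log2 fold change of Pclo ran from -0.59 to -0.44 with 1 library left out. The member median was -0.018 after TPM scaling. Median-of-ratios scaling left it at 0.079 and called 928 genes in all, so that alternative scarcely differs from the fit reported. Pairs with ratios that did not overlap numbered 3 to 9 with 1 library left out, where fewer values overlap more rarely; they were 9 without control 3.

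The sign of 10 of the 37 members tested turned after TPM scaling and of 2 (Sypl and Rims2) with the trend taken out, none with a call. Among them were Gad2 (-0.080), Slc6a5 (-0.080), Napb (-0.018) and Vamp1 (-0.025) after TPM scaling, beside Syt1, Syt2, Syt4, Rims1, Erc2 and Gad1. With 1 library left out the sign turned in at least 1 fit for 13 members, none with a call: Syt1, Syt2, Rims1, Erc2, Gad1, Sypl and Synpr, and, with their ranges, Gad2 (-0.11 to 0.12), Slc6a5 (-0.093 to 0.18), Rab3a (-0.0052 to 0.23), Syn1 (-0.00065 to 0.31), Sv2c (-0.23 to 0.019) and Syt7 (-0.14 to 0.029).

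Over all genes 927 were called (41.6% higher), 912 after TPM scaling (22.8% higher), 1387 after trend removal (65.2%), 988 with a mean of at least 1 FPKM (53.1%), 1690 with voom, 181 with the replicate block, 556 with no filter and 192 to 736 with 1 library left out. Same-numbered libraries showed no strong shared deviation (correlations of -0.028, 0.015 and 0.0034). Whether same-numbered mice were handled together was not stated, and 3 libraries a group cannot exclude it. The replicate block took the call of Pclo (adjusted p = 0.0647). Slc17a7 rests on 0 to 24 reads a library and was not tested.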

Other observations

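Ratios of related members were set against the motor neuron markers of the same library. The 8 markers, among them Chat, had mean log2 levels of 2.60, 3.06 and 3.23 in controls and 3.32, 2.79 and 2.68 in ACD. Over the 6 libraries the log2 ratio of Syt2 to Syt1 correlated with them at Pearson's r = 0.96 (exact permutation p = 0.00833) and Spearman's rho = 0.89 (exact permutation p = 0.0333). That of Vamp1 to Vamp2 gave 0.90 and 0.94, that of Cplx1 to Cplx2 0.91 and 0.89, and that of Syt7 to Syt1 0.89 and 0.77. Without control 1 and ACD 1, the libraries farthest from the median of the markers, these 4 Pearson values were 0.96, 0.94, 0.97 and 0.995. On the same 4 libraries ratios with weaker relations over all 6 also came out high, among them Sv2c/Sv2a at 0.997, Slc6a5/Slc32a1 at 0.993, Syn3/Syn1 at 0.986 and Gad2/Gad1 at 0.960, so these 4 libraries do not set the first ratios apart. Of 16 ratios examined after seeing the data none passed adjustment, with a smallest adjusted exact permutation p of 0.111 for Pearson and 0.178 for Spearman. Each group has 3 libraries, too few to examine the relation within it.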
